A study of Mus musculus with 6 samples.

Results

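A set of 44 genes for actin, myosin and the proteins that build, bind and anchor actin filaments was followed in cultured mouse lung fibroblasts given the Smoothened agonist purmorphamine. The members were listed by gene symbol, from contractile smooth muscle genes to more general cytoskeletal genes. All 44 of 44 were measured, among 22180 named genes. A gene was read from the probe set (the group of array probes for 1 transcript) that carried its symbol and no other. For the 6 members with more than 1 such probe set, the brightest on average represented the gene. In all, 15 members were placed in a smooth muscle group and 28 in a general cytoskeleton group, and Coro1a, an actin regulator of leukocytes, was kept apart. The split is not clean: the general group holds Flnc, the filamin of muscle, and the smooth muscle group holds Tpm2, which fibroblasts share.

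Primary fibroblasts came from digested lungs of 8 week old male wild-type C57BL/6 mice and were passaged at most 3 times. Cells were spread over wells that received vehicle (3 wells, 3 arrays) or purmorphamine (3 wells, 3 arrays) for 24 h, at a dose written as 5um in the labels and read here as 5 µM. The labels do not say how many mice or pools the wells came from, so the p-values measure only the spread between these wells, which may be technical. Purmorphamine switches on Smoothened, the membrane protein that passes Hedgehog signals to the Gli transcription factors.

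Contractile cells slide myosin II along actin filaments. Phosphorylation of the regulatory light chain by myosin light chain kinase starts the movement, tropomyosin, calponin, caldesmon and transgelin lie along the thin filament, and alpha-actinin, filamin, vinculin, talin and zyxin tie filaments to each other and to adhesion sites. Serum response factor, encoded by Srf, binds CArG boxes near many of these genes. It works with myocardin in smooth muscle and with the myocardin-related factors, which sense free actin, in most other cells. In the lung, high levels of Acta2, Tagln and Cnn1 are known from airway and vascular smooth muscle and from activated myofibroblasts.

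With purmorphamine 23 of the 44 members fell and 0 rose (limma, Benjamini-Hochberg adjusted p under 0.05 over all genes), where 7.16% of all genes tested fell and 7.18% rose. At an unadjusted p under 0.05, 1 member was higher, Synpo2. The falls were small: Srf fell by 0.56 log2 units (1.47-fold), the smooth muscle myosin gene Myh11 by 0.47 (1.39-fold) and the vinculin gene Vcl by 0.42 (1.34-fold), and Coro1a alone, at 1.64-fold lower, passed a fold of 1.5. The fall was not limited to smooth muscle genes. Of the 15 smooth muscle members 7 fell, with a median difference of -0.20 over the group, and of the 28 general cytoskeleton members 15 fell, with a median of -0.19. The median over all genes was -0.01. In 32 members all 3 purmorphamine values lay below all 3 vehicle values, against 17.1% of all genes, and Des was the 1 member in the opposite order.

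Calls in both directions were more frequent among bright genes. Among the 2611 genes with a mean of at least 10, 369 fell (14.1%) and 394 rose. Purmorphamine values lay wholly below the vehicle values in 820 of them (31.4%) and wholly above in 858, with a median difference of 0.01. Of the 32 members this bright, 19 fell and 0 rose, 27 had values wholly below and the median was -0.21. The 12 dimmer members had 4 falls, where 7.16% of all genes of any brightness fell. These were Coro1a (-0.71), Srf (-0.56), Fhl2 (-0.35) and Lmod1 (-0.21), and the first 2 were the largest falls of any member. The dimmer members had 7 negative and 5 positive differences and a median of -0.04. The split at 10 was chosen after the data were seen.

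With any 1 array left out, so with fewer samples, all 23 falls kept their direction, and 12 passed the test in all 6 cases: Srf, Coro1a, Myh11, Vcl, Tln1, Tagln2, Cnn2, Fhl2, Zyx, Pdlim5, Flnc and Actn4. Acta2, Lmod1, Actb, Actn1, Myh9 and Tpm1 missed it in all 6, with adjusted p from 0.056 to 0.132, and the other 5 in some. The smooth muscle count dropped from 7 to 1 without vehicle replicate 1 or vehicle replicate 2, to 2 without purmorphamine replicate 3 and to 3 without vehicle replicate 3, purmorphamine replicate 1 or purmorphamine replicate 2. The general count ran from 10 to 11.

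**Figure D1:**
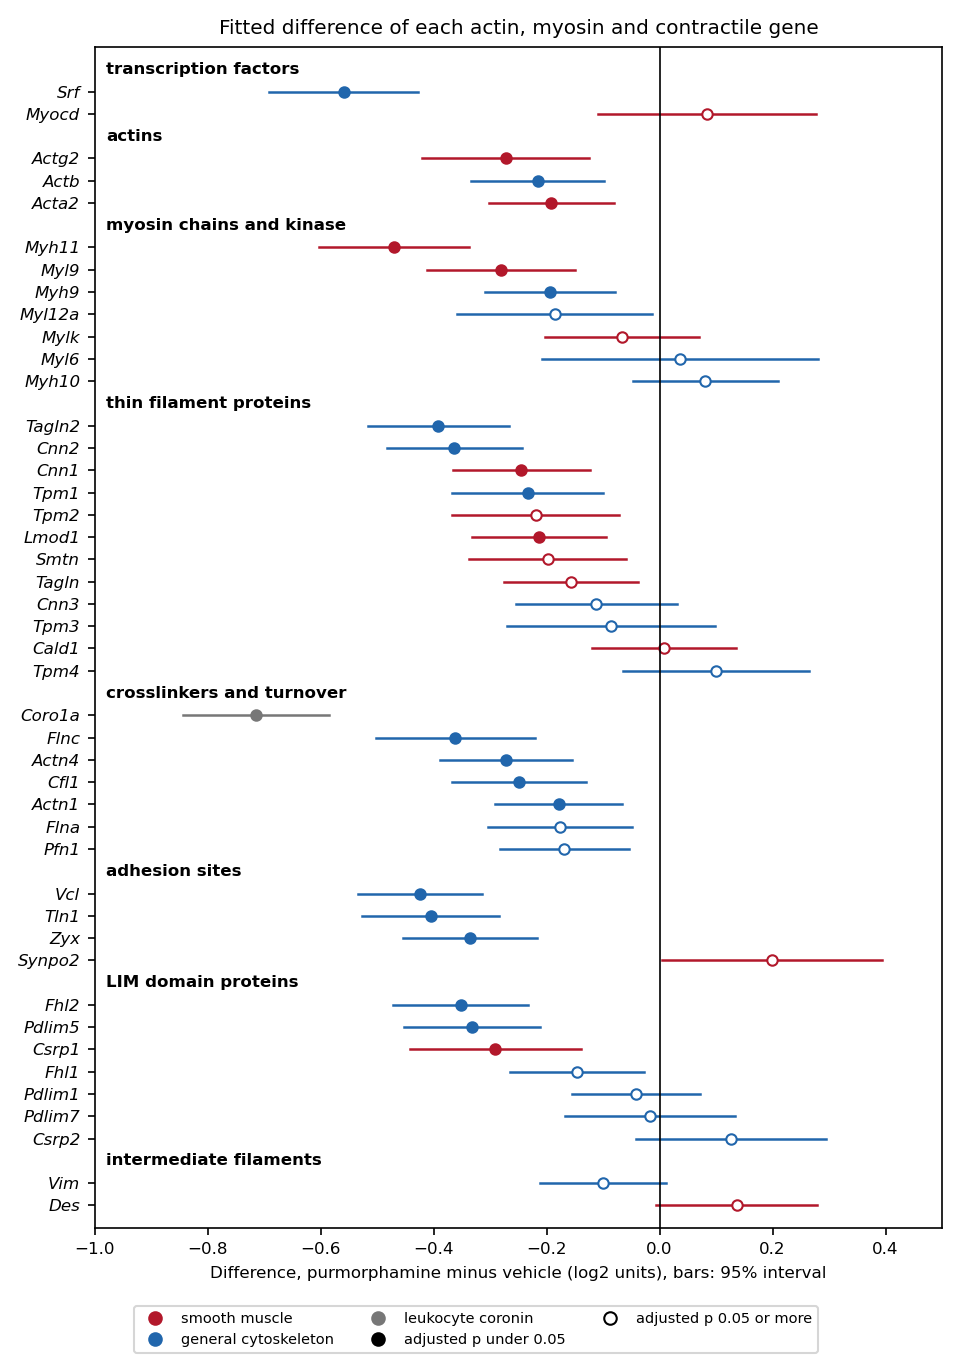
Fitted difference between purmorphamine and vehicle (log2 units, x axis) for each of the 44 genes, ordered by role, with bars for the 95% interval. Filled points passed the test at an adjusted p under 0.05, and all 23 of them lie to the left of 0, from Coro1a at -0.71 to Actn1 at -0.18.

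Across genes, which are not independent replicates, correlations between arrays were 0.996 to 0.997 within a group and 0.992 to 0.993 between groups. Array medians over all probe sets were 6.34 to 6.39, and upper quartiles 8.20 to 8.24. The median standard deviation of a member within a group was 0.04, against 0.08 over all genes, and the number of arrays limits the precision. The cultures carried fibroblast transcripts such as Col1a1, with a vehicle mean of 12.77, and smooth muscle or myofibroblast transcripts such as Acta2 at 14.13. All 10 leukocyte markers were also above the upper quartiles, none being lower than 10.03 on any array. Each value is therefore that of a mixed culture, in which fewer cells of a type and less RNA per cell cannot be told apart.

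Of the 2 transcription factors among the members, Srf had the largest fall of any member after Coro1a, while Myocd did not pass the test. Srf read 10.00, 10.09 and 10.09 on the vehicle arrays and 9.55, 9.45 and 9.50 on the purmorphamine arrays. The groups lay apart by more than the range within either one, and the difference was -0.56 (SE 0.06, limma adjusted p = 0.0012). Myocd, which encodes the Srf partner of smooth muscle, read 6.62, 6.85 and 6.66 with vehicle and 6.86, 6.69 and 6.83 with purmorphamine. These overlapped, the difference was 0.08 (95% interval -0.11 to 0.28, adjusted p = 0.57), and the values lay close to the array medians.

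CArG boxes are shown because they are the sequences that Srf binds. The motif searched was the CArG box, read as CC, then 6 bases that are each A or T, then GG. It reads as the same pattern on the opposite strand, and matches may overlap. The window ran from 250 bases before to 50 bases after each start in RefSeq promoters of build GRCm38.p6, which held 47 promoters of 38 members. Tagln, Myh11, Myocd, Csrp2, Actb and Actg2 had no entry. A match was present in 8 of these 47 promoters (17.0%), those of 7 genes, and in 1.63% of all 32851 promoters. The genes were Srf, Vcl, Cnn2, Myl9 and Fhl2, which fell, and Fhl1 and Myl6, which did not pass the test. Thus 5 of the 20 fallen members with an entry had a match, as did 2 of the 18 others and 488 of all 27025 genes with an entry (1.81%). By group it was 1 of 11 smooth muscle and 6 of 26 general cytoskeleton members. The members are genes near many of which Srf is known to bind, so these shares are no test of Srf in these data. A match is a description of letters and does not show binding, and the absence of one says only that these letters are not in the window.

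The stretches around the matches of the 5 fallen genes follow, 5′ to 3′ on the strand of the gene and ending before the start, with the matches in capitals. Srf itself has 2 matches, which start 82 and 62 bases upstream (chr17:46556190-46556269, minus strand). The Vcl match starts 227 bases upstream (chr14:20929148-20929205, plus strand), that of Cnn2 56 (chr10:79988519-79988578, plus strand) and that of Myl9 161 (chr2:156775278-156775337, plus strand). Vcl and Cnn2 share the same 10 letters. Fhl2 has 2 annotated starts, each with a match, 31 bases upstream of the first one printed (chr1:43163962-43164017, minus strand) and 96 upstream of the second (chr1:43196823-43196882, minus strand).
Srf: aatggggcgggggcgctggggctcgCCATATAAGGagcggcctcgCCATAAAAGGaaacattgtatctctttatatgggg
Vcl: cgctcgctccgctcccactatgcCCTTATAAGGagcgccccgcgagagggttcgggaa
Cnn2: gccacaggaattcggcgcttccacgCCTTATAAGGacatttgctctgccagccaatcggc
Myl9: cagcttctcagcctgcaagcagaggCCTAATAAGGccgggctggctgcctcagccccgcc
Fhl2 first start: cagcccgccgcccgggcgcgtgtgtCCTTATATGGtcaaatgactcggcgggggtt
Fhl2 second start: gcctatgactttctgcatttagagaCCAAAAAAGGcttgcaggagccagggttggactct

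All 3 actin genes fell. Acta2, the alpha actin of smooth muscle and myofibroblasts, read 14.12, 14.12 and 14.13 with vehicle and 13.94, 13.92 and 13.94 with purmorphamine. The groups were far apart compared with their spread, but the difference was only -0.19 (SE 0.05, adjusted p = 0.036, 1.14-fold lower). The vehicle values of Acta2 lay near the highest values on the arrays, 14.23 to 14.38, and whether that compressed the difference was not tested. Actg2, the gamma actin of smooth muscle, read 11.12, 11.01 and 11.03 with vehicle and 10.70, 10.80 and 10.85 with purmorphamine. It fell by 0.27 (SE 0.06, adjusted p = 0.030), and every purmorphamine array was below every vehicle array. Actb, the beta actin of non-muscle cells and a common reference gene, read 12.17, 12.21 and 12.23 with vehicle and 12.02, 11.98 and 11.96 with purmorphamine, and fell by 0.22 (SE 0.05, adjusted p = 0.030). The muscle actin Acta1, which is no member, fell by 0.76 (SE 0.08, adjusted p = 0.0012), from 10.88 ± 0.01 to 10.12 ± 0.14 (SD, n = 3). Actin genes encode near-identical proteins, and whether a probe set of one also reads the transcripts of another was not tested, so these values are uncertain as separate signals. Acta2 and Actb missed the test with any 1 array left out. Actg2 did so without each of the arrays but purmorphamine replicate 3, with adjusted p from 0.049 to 0.094 over the 6 cases.

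Of the 7 genes of myosin chains and their kinase 3 fell: a smooth muscle heavy chain, a regulatory light chain and a non-muscle heavy chain. Myh11, the heavy chain of smooth muscle myosin, read 11.38, 11.46 and 11.38 with vehicle and 10.98, 10.87 and 10.96 with purmorphamine. Its fall of 0.47 (SE 0.06, adjusted p = 0.0023) was the largest among smooth muscle members. Myl9, a regulatory light chain that the kinase phosphorylates, read 12.60, 12.59 and 12.50 with vehicle and 12.31, 12.30 and 12.23 with purmorphamine, a fall of 0.28 (SE 0.06, adjusted p = 0.017). The call was lost when vehicle replicate 1 or 2 or purmorphamine replicate 3 was left out (adjusted p 0.059 to 0.061). Myh9, the heavy chain of non-muscle myosin IIA, read 12.65, 12.63 and 12.65 with vehicle and 12.42, 12.46 and 12.48 with purmorphamine. The groups did not overlap, and the fall of 0.19 (SE 0.05, adjusted p = 0.040) was lost with any 1 array left out.

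The other 4 genes of myosin chains and their kinase did not pass the test. Myh10, the heavy chain of non-muscle myosin IIB, differed by 0.08 (95% interval -0.05 to 0.21), opposite in sign to Myh9. Mylk, the light chain kinase itself, differed by -0.07 (-0.20 to 0.07), and its groups overlapped. Myl6, the essential light chain of non-muscle and smooth muscle myosin, read 7.22 to 7.59 with vehicle, the widest spread of any member within a group (SD 0.20), and differed by 0.04. Myl12a, a regulatory light chain close to Myl9, differed by -0.19 (adjusted p = 0.15), with all purmorphamine values below the vehicle values. Its dimmer probe set differed by -0.39, and the mean of both had an adjusted p of 0.021, where all alternatives gave 0.021 to 0.335. Close paralogs of Myl9 and Myl12a may share probes, so their separate values are uncertain.

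Along the thin filament 5 of 12 genes fell. They were a transgelin, the basic and neutral calponins, a tropomyosin and a leiomodin. Tagln2, the transgelin of non-muscle cells, read 11.83, 11.78 and 11.87 with vehicle and 11.43, 11.48 and 11.40 with purmorphamine, and fell by 0.39 (SE 0.05, adjusted p = 0.0038). Its dimmer probe set differed by -0.34. Tagln, the smooth muscle transgelin also called SM22, read 12.60, 12.54 and 12.55 with vehicle and 12.39, 12.39 and 12.44 with purmorphamine. Its groups did not overlap, but the difference of -0.16 (95% interval -0.28 to -0.04, adjusted p = 0.086) did not pass the test.

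Calponins bind actin and restrain myosin. Cnn2, the calponin of non-muscle cells, read 12.34, 12.31 and 12.36 with vehicle and 11.98, 12.00 and 11.93 with purmorphamine, a fall of 0.36 (SE 0.05, adjusted p = 0.0042). Cnn1, the smooth muscle calponin, read 12.81, 12.81 and 12.79 with vehicle and 12.61, 12.55 and 12.51 with purmorphamine. It fell by 0.24 (SE 0.05, adjusted p = 0.021), and missed the test without each of the arrays but purmorphamine replicate 1 (adjusted p from 0.042 to 0.070 over the 6 cases). Cnn3, the acidic calponin, differed by -0.11, with groups that overlapped (adjusted p = 0.29).

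Tropomyosins, the coiled coils that gate myosin on actin, were divided. Tpm1 read 11.57, 11.64 and 11.67 with vehicle and 11.40, 11.33 and 11.44 with purmorphamine, and fell by 0.23 (SE 0.06, adjusted p = 0.036), a call lost with any 1 array left out. Tpm2, the beta chain that muscle and fibroblasts share, differed by -0.22 with no overlap but did not pass (adjusted p = 0.061). Tpm3 differed by -0.09 and Tpm4 by 0.10, both with overlap, and their dimmer probe sets by -0.34 and -0.04. Lmod1, the smooth muscle leiomodin that starts actin filaments, read 9.14, 9.09 and 9.05 with vehicle and 8.89, 8.88 and 8.87 with purmorphamine, and fell by 0.21 (SE 0.05, adjusted p = 0.032), also lost with any 1 array left out. The caldesmon gene Cald1 had nearly equal means, with a difference of 0.01 (95% interval -0.12 to 0.13), and its sign turned under median centring and without purmorphamine replicate 1 or 3. Smtn, smoothelin, a marker of contractile smooth muscle, differed by -0.20 without overlap (adjusted p = 0.071), and its dimmer probe set by -0.23.

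Crosslinkers and proteins of filament turnover fell in 5 of 7 cases, and all 7 had purmorphamine values wholly below the vehicle values. Coro1a, coronin 1A, read 9.63, 9.72 and 9.69 with vehicle and 8.91, 9.00 and 8.98 with purmorphamine, a fall of 0.71 (SE 0.05, adjusted p = 4.75e-04). Flnc, the filamin of muscle, read 10.16, 10.21 and 10.31 with vehicle and 9.85, 9.84 and 9.90 with purmorphamine, and fell by 0.36 (SE 0.06, adjusted p = 0.0082). The general filamin gene Flna differed by -0.18 and did not pass (adjusted p = 0.077). Both non-muscle alpha-actinins, which bundle filaments, fell. Actn4 read 12.67, 12.67 and 12.69 with vehicle and 12.40, 12.44 and 12.37 with purmorphamine, a fall of 0.27 (SE 0.05, adjusted p = 0.012). Actn1 read 13.05, 13.03 and 13.06 with vehicle and 12.89, 12.86 and 12.85 with purmorphamine. Its fall of 0.18 (SE 0.05, adjusted p = 0.0498) was the closest to the threshold and was lost with any 1 array left out and when probe sets were averaged (0.051), which leaves the values of Actn1 itself as they are. Over all alternatives its adjusted p was 3.28e-04 to 0.132. Cfl1, the filament-severing cofilin, read 11.71, 11.65 and 11.67 with vehicle and 11.43, 11.45 and 11.39 with purmorphamine, and fell by 0.25 (SE 0.05, adjusted p = 0.018). That call was lost when vehicle replicate 1 or 3 or purmorphamine replicate 1 or 3 was left out (adjusted p 0.056 to 0.064). Pfn1, profilin, which hands actin monomers to growing ends, differed by -0.17 (adjusted p = 0.063).

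Genes of adhesion sites, where filaments meet integrins, fell in 3 of 4 cases, with the lowest median of the role groups, -0.37. Vcl, vinculin, read 12.44, 12.43 and 12.44 with vehicle and 12.02, 12.02 and 12.01 with purmorphamine. That fall of 0.42 (SE 0.05, adjusted p = 0.0017) was large against an SD of 0.01 in either group. Tln1, talin, which links integrins to actin, read 11.66, 11.62 and 11.70 with vehicle and 11.22, 11.26 and 11.29 with purmorphamine, a fall of 0.41 (SE 0.05, adjusted p = 0.0030). Zyx, zyxin, a LIM protein of strained stress fibres, read 11.00, 10.99 and 11.07 with vehicle and 10.69, 10.68 and 10.68 with purmorphamine, a fall of 0.34 (SE 0.05, adjusted p = 0.0056). Synpo2, a smooth muscle partner of actinin and filamin, went the other way by 0.20 with overlap (adjusted p = 0.17), at values of 6.45 to 6.84 near the array medians.

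Among 7 other LIM domain genes 3 fell. Fhl2, a transcriptional cofactor and known target of Srf, read 9.96, 9.93 and 9.90 with vehicle and 9.53, 9.60 and 9.59 with purmorphamine, a fall of 0.35 (SE 0.05, adjusted p = 0.0049). Pdlim5, which tethers kinases to the Z-disc and stress fibres, read 11.81, 11.83 and 11.89 with vehicle and 11.52, 11.48 and 11.53 with purmorphamine, a fall of 0.33 (SE 0.05, adjusted p = 0.0063). Neither group pair overlapped. Csrp1, a cysteine-rich LIM protein of smooth muscle, read 12.27, 12.18 and 12.11 with vehicle and 11.87, 11.97 and 11.85 with purmorphamine, a fall of 0.29 (SE 0.06, adjusted p = 0.025). This call was lost when vehicle replicate 1 or 2 or purmorphamine replicate 1 or 3 was left out (adjusted p 0.074 to 0.087). The 4 not past the test were Fhl1 (-0.15, adjusted p = 0.11), Pdlim1 (-0.04), Pdlim7 (-0.02) and Csrp2 (0.13), and among these Fhl1 and Pdlim1 had groups that did not overlap.

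Neither intermediate filament gene passed the test, at an unadjusted p of 0.073 for Vim and 0.059 for Des. Vim, the vimentin of mesenchymal cells and leukocytes, read 13.71, 13.71 and 13.74 with vehicle and 13.63, 13.63 and 13.61 with purmorphamine. The groups did not overlap, and the difference was -0.10 (95% interval -0.21 to 0.01), with -0.20 in its dimmer probe set. Des, the desmin of muscle, read 8.71, 8.71 and 8.57 with vehicle and 8.83, 8.80 and 8.76 with purmorphamine, a difference of 0.14 (-0.01 to 0.28, adjusted p = 0.20).

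**Figure D2:**
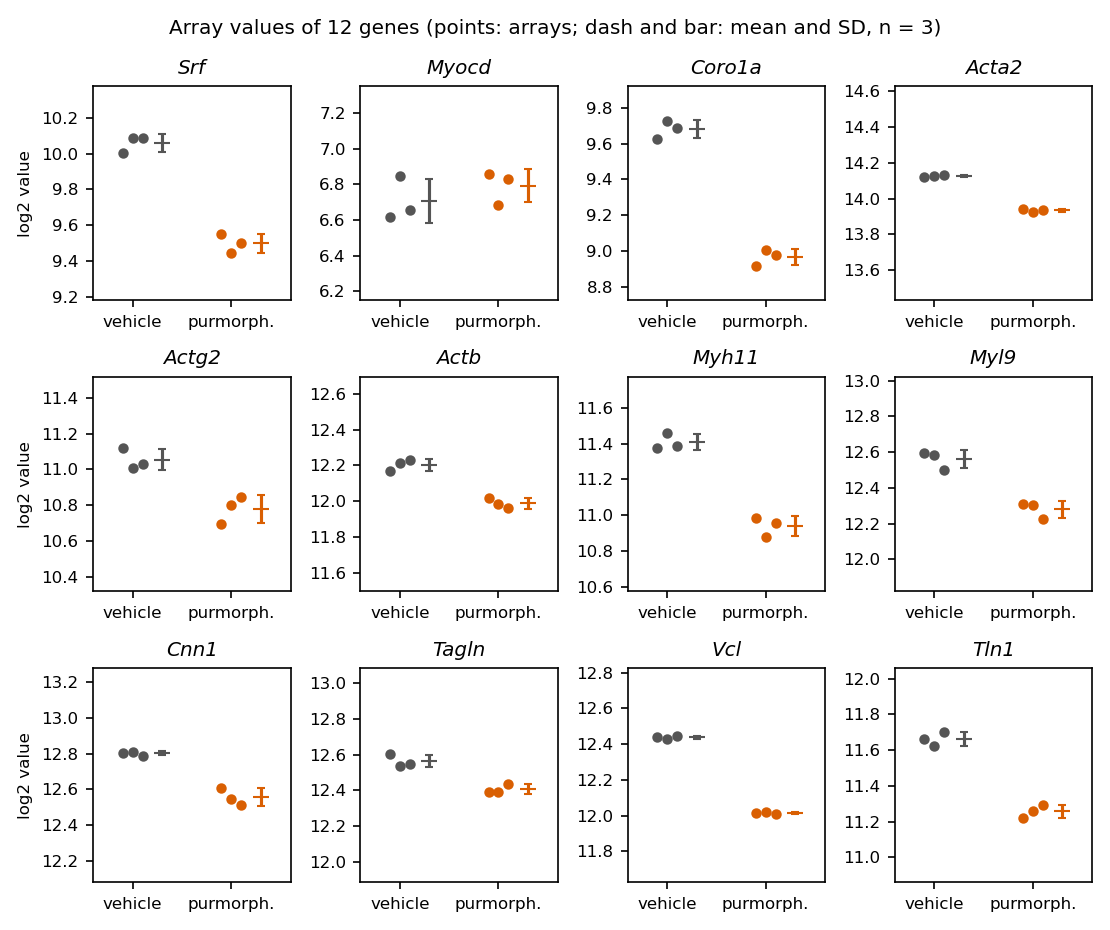
Log2 value on each array (points) with the mean and SD of 3 arrays (dash and bar) for 12 members, vehicle in grey and purmorphamine in orange, with y axes of equal span. In 11 of the 12 panels all purmorphamine points lie below all vehicle points, Tagln included although it did not pass the test, and in the Myocd panel they overlap.

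Smooth muscle and general members were set side by side without a test of the difference. Pairs of muscle and non-muscle relatives showed no common order. Cnn2 had a larger fall than Cnn1 (0.36 and 0.24), and Tagln2 differed more than Tagln (-0.39 and -0.16). For the myosin heavy chains it was Myh11 that had the larger fall, 0.47 against 0.19 for Myh9. The 8 smooth muscle members that did not pass the test ranged from -0.22 (Tpm2) to 0.20 (Synpo2), and the 13 general ones from -0.19 (Myl12a) to 0.13 (Csrp2). With smooth muscle taken narrowly (Acta2, Actg2, Tagln, Myh11, Cnn1, Smtn, Lmod1, Synpo2, Des and Myocd), 5 of 10 fell, against 17 of the 33 others without Coro1a.

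Other genes of the same machinery were read from fixed lists. Of 13 Srf partners and smooth muscle transcription factors 3 fell and 3 rose. The MADS-box factors Mef2c and Mef2a fell by 0.52 and 0.48, and Prrx1 and Gata6 rose by 0.36 and 0.34. The myocardin-related factors and Klf5 are named after their values were seen. Mrtfa differed by 0.06 and did not pass, Mrtfb rose by 0.20 (adjusted p = 0.048) and Klf5 fell by 0.44. The call of Mrtfb was lost under both other scalings, with averaged probe sets and with any 1 array left out (adjusted p over all alternatives 0.0031 to 0.138).

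Of 22 measured actin assembly genes 3 fell and the others did not pass, with a median of -0.07: the formin gene Diaph3 by 0.58 (adjusted p = 0.0013) and the Arp2/3 subunit genes Arpc4 and Arpc5 by 0.33 and 0.29. Arpc5 lost its call when vehicle replicate 2 or purmorphamine replicate 1 or 3 was left out (adjusted p 0.055 to 0.061). Of 16 measured focal adhesion genes 6 fell and the others did not pass, with a median of -0.14, among them the scaffold Bcar1, caveolin Cav1, the fibronectin receptor chain Itga5 and the kindlin Fermt2, which fell by 0.42, 0.41, 0.37 and 0.23. The call of Fermt2 was lost with any 1 array left out. Of 14 striated muscle genes only Acta1 passed the test.

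**Figure D3:**
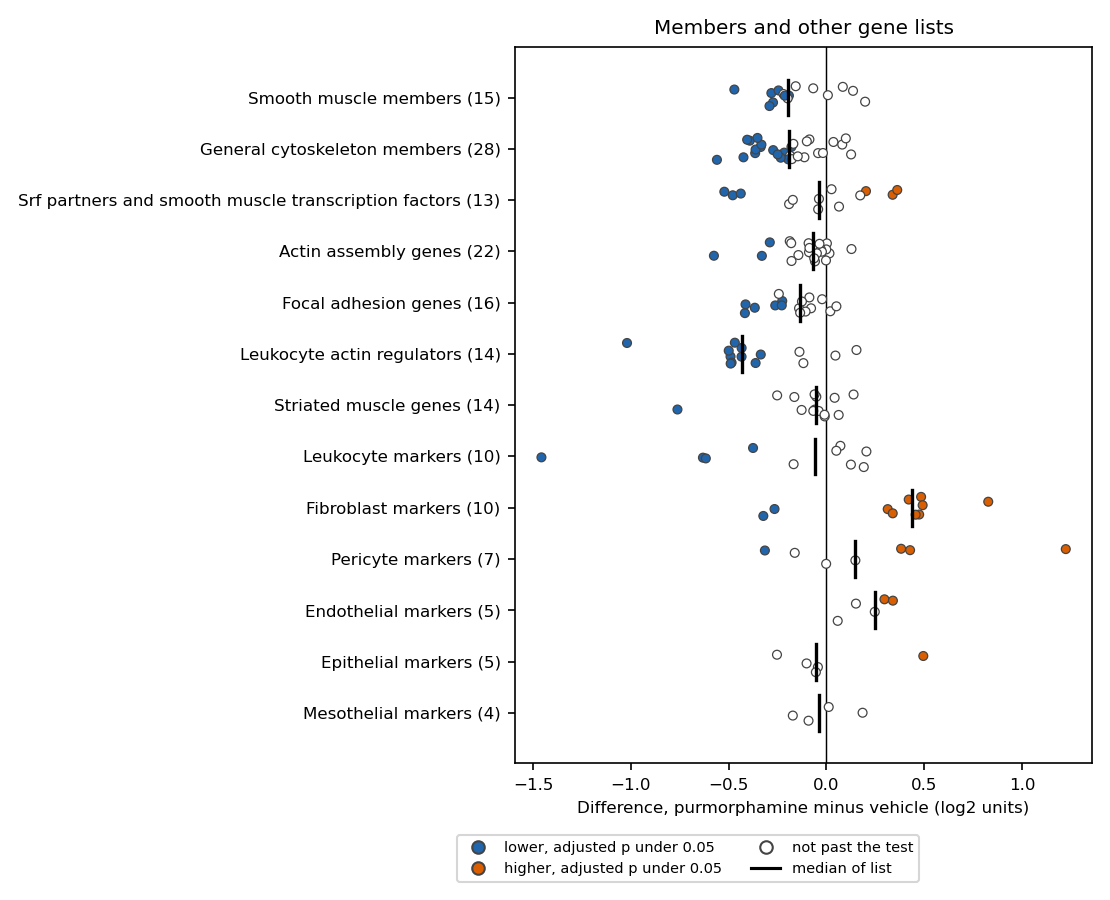
Difference between purmorphamine and vehicle (log2 units, x axis) for every measured gene of each list reported, 1 point a gene, with the list median as a black line and the number of genes in brackets. Both member groups have medians near -0.2, leukocyte actin regulators lie lower at -0.43 and fibroblast markers higher at 0.44.

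Transcripts of other cell types moved beside the members. Of 14 actin regulators known from leukocytes 10 fell and 4 did not pass, with a median of -0.43. Among the falls were Aif1 by 1.02, Arhgdib by 0.49, Dock8 by 0.48 and the myosin gene Myo1g by 0.47. The 4 not past the test were Lcp1 (-0.14), Parvg (-0.12), Myo1f (0.05) and Capg (0.15). Capg had purmorphamine values wholly above the vehicle values. The purmorphamine values of Aif1, 6.36 to 6.63, lay near the array medians. Leukocyte markers were divided: 4 of 10 fell and 6 did not pass, with 5 negative and 5 positive differences and a median of -0.06. Itgam fell by 1.46, Csf1r by 0.63, Mrc1 by 0.62 and Adgre1 by 0.37. Marco (0.20), Cd14 (0.19), Cd68 (0.13) and Lyz2 (0.05) had purmorphamine values wholly above the vehicle values without passing the test. The summed linear signal of the list was 60848 to 61279 on the vehicle arrays and 55795 to 57717 on the purmorphamine arrays. Fcer1g and Ptprc differed by -0.17 and 0.07 and did not pass. Leukocytes also express many general cytoskeleton members, such as Actb, Tln1, Myh9, Cfl1 and Pfn1, and their part in the members' falls was not tested.

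Of 10 fibroblast markers 8 rose and 2 fell, with Pdgfra (0.83), Col1a2 (0.48) and Dcn (0.46) higher, while Thy1 fell by 0.32. Their summed linear signal was 15489 to 15886 with vehicle and 20189 to 21736 with purmorphamine. Smooth muscle members had summed signals of 53736 to 55146 with vehicle and 46907 to 47527 with purmorphamine. Of 7 pericyte markers, a cell type that shares contractile genes, Rgs5 (1.22), Notch3 (0.43) and Pdgfrb (0.38) rose and Cspg4 fell by 0.31, with sums of 2935 to 2982 and 3297 to 3389. Mcam (-0.16), Kcnj8 (-0.001) and Abcc9 (0.15) did not pass the test, and Mcam had purmorphamine values wholly below the vehicle values. The vehicle values of Rgs5, 6.23 to 6.37, and of Notch3, 6.54 to 6.75, lay near the array medians. Of 5 endothelial markers Cdh5 (0.34) and Pecam1 (0.30) rose, of 5 epithelial markers Epcam rose (0.50) while the other 4 had differences of -0.25 (Sftpc) to -0.04 (Cdh1) that did not pass, and 0 of 4 mesothelial markers passed limma's test (2 at an unadjusted p under 0.05). The part of these cell types in the members' values was not tested.

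**Figure D4:**
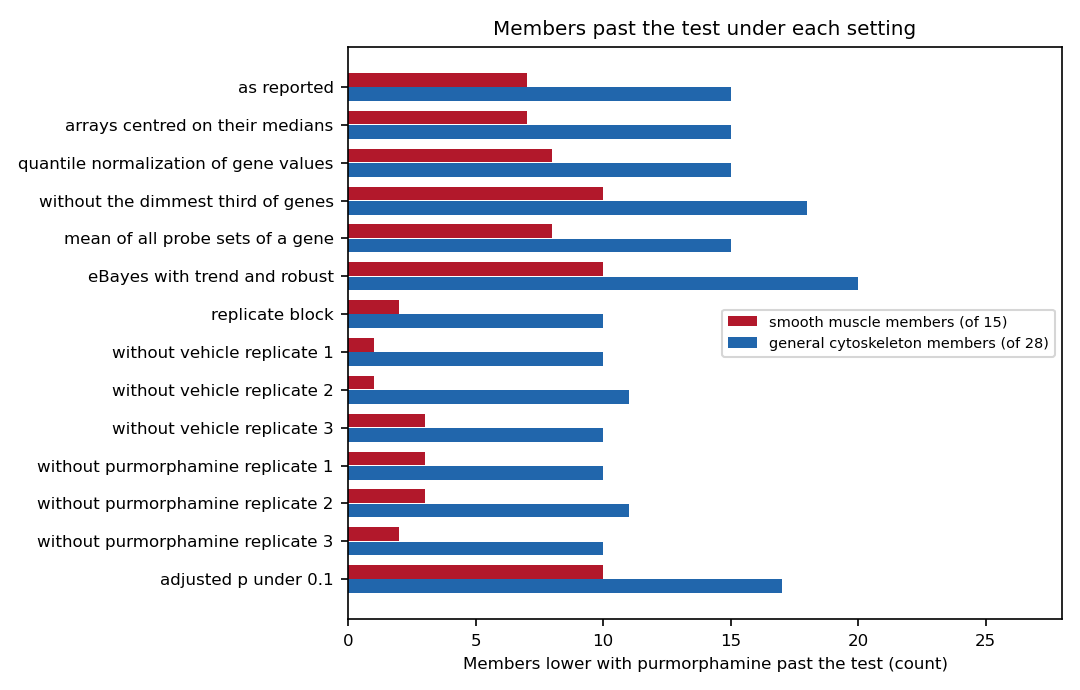
Number of smooth muscle (red, of 15) and general cytoskeleton (blue, of 28) members that were lower with purmorphamine past the test (x axis, from 0), as reported and under each alternative setting (y axis). The smooth muscle count ranges from 1 to 10 and the general count from 10 to 20, and no member was higher past the test under any of these settings.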

How the data were processed

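RNA of 6 wells was measured on Affymetrix arrays, 1 per well. The authors' deposited values are log2 probe set values, and oligo, RMA and limma are named, without versions, in the submitters' processing notes. Since RMA equalizes the arrays' overall distributions, a shift shared by every gene is removed. Separately from that, differences of dim genes can be compressed. The array annotation gave 23521 of 41345 probe sets 1 gene symbol, and only these were named. Purmorphamine was compared with vehicle over all 22180 genes by limma 3.58.1 in R 4.3.3 (lmFit, then eBayes) without a block or a filter, two-sided, with Benjamini-Hochberg adjustment, and the steps were checked on simulated data. Members and lists were chosen with earlier results of these data known. Array values are given for members past the test without overlap and for Acta2, Actg2, Tagln, Myh11, Cnn1, Actb, Srf, Myocd and Coro1a, for Vim and Des as chosen after their values were seen, and for other lists at most the 4 genes of smallest p, with further names chosen after their values were seen. One of the lists is not reported here. Alternatives were other scalings, filters, probe set means, variance models, thresholds, groupings, a replicate block and leaving out each array. Python 3.11.15 with pandas 2.3.3 and matplotlib 3.10.9 was used.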

Additional observations from a re-analysis of the deposited data

How the results depend on the processing

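The median over all genes moved from -0.01 to -0.02 with centred arrays and to 0.002 with quantile normalization, and no count of members lower or higher changed by over 1.5 times with another scaling, filter, variance model, threshold, probe set rule or grouping. With the replicate block the smooth muscle count was 2 (Myh11 and Myl9) and the general count 10, and 13 of the 23 called members stayed past the test. Over all genes the block gave 1239 falls and 1193 rises, against 1588 and 1593 without it. Same-numbered arrays deviated together weakly (correlations across genes of 0.11, 0.02 and 0.10), and differently numbered ones had correlations of -0.095 to -0.008. Each array thus correlated best with its own number. Deviations were taken from the mean of the group and sum to 0 for each gene. Positive correlations of same-numbered arrays therefore force negative ones elsewhere, which are no separate evidence. The labels do not say that equal numbers mark a shared source, so the block was not used. Whether same-numbered wells share a source was not tested. With 1 array left out, the smooth muscle count was 1 to 3, the falls over all genes 1057 to 1206 and the rises 897 to 1168. Rises over all genes were 2416 with trend and robust. Differences that turned in sign were all of genes not past the test: Cald1 with centred arrays (-0.0050), and, with 1 array left out, Cald1 (-0.0098 to 0.042), Myl6 (-0.034 to 0.152) and Pdlim7 (-0.057 to 0.025).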
